A study of Mus musculus with 20 samples.

Results

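Open chromatin listed 2 hours after adipogenic induction was set against open chromatin listed on day 0, in the mouse preadipocyte line 3T3-L1. Peaks of the 2 DNase I hypersensitive site (DHS) lists were merged into union regions wherever they overlapped by at least 1 bp. A region with a 2 hours peak and no day 0 peak is called gained, a region with both is called kept, and a region with a day 0 peak alone is called lost. The 9055 peaks of 2 hours and the 9989 peaks of day 0 gave 13638 regions, whereas all 6 DHS lists of the series gave 46760. Of the 13638, 3692 were gained (27.1%), 5317 were kept (39.0%) and 4629 were lost (33.9%).

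The cells labelled 2 hours had received fetal bovine serum with insulin, dexamethasone and 3-isobutyl-1-methylxanthine for that time, and the day 0 cells were taken 2 days after confluency, at the point of induction. Both came from the same clonal preadipocyte line, so no other genotype enters the comparison. Nuclei had been digested lightly with DNase I and short fragments cut at both ends were sequenced. In addition, 10 chromatin immunoprecipitation (ChIP-seq) lists of day 0, 2 hours and 4 hours were laid over the regions: C/EBPbeta at all 3 times, C/EBPdelta and RNA polymerase II (RNA Pol II) on day 0 and at 4 hours, and the glucocorticoid receptor (GR), Stat5a and RXR at 4 hours. Each list stands for 1 library, so differences between times had no replicate check and were not tested.

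DNase I cuts DNA most readily where nucleosomes are displaced or loosened, which is the case at active promoters and at enhancers held by transcription factors. C/EBPbeta and C/EBPdelta are related leucine zipper factors that are induced early in adipogenesis and bind as dimers. GR is the nuclear receptor activated by dexamethasone, Stat5a is a signal-responsive factor downstream of growth hormone and cytokines, and RXR is the shared dimer partner of many nuclear receptors, PPARgamma among them. RNA Pol II transcribes protein-coding genes and is often enriched at the promoters of active genes.

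The lists held positions and no scores, so that read depth is unknown and peak width is the one measure each peak carried. The 2 DHS lists were alike in size. Median peak width was 580 bp at 2 hours and 568 bp on day 0, and the peaks covered 5.52 Mb and 5.99 Mb of the genome. Lists of other times were longer, with 31751 peaks at 4 hours, 35389 on day 1, 25097 on day 2 and 11936 on day 6. The percentages below carry exact (Clopper-Pearson) 95% intervals, which cover counting over regions of these libraries and not the spread between cultures.

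Of the peaks of 2 hours, 59.2% (58.2 to 60.2, n = 9055) overlapped a peak of day 0. The rule separated the classes with few borderline cases. Of the kept regions, 5242 joined exactly 1 peak of each list, and the median overlap in these was 100% of the shorter peak (first quartile 97.0%). Just inside the rule, 15 kept pairs overlapped by under 50% of the shorter peak, and the smallest overlap was 7 bp. Just outside it, 117 gained and 150 lost regions had a peak of the other list within 500 bp. The median gap to the other list was 37.5 kb for gained and 46.8 kb for lost regions. Median width was 549 bp for gained, 690 bp for kept and 511 bp for lost regions. Kept regions merge a pair of peaks and are wider in part for that reason.

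Gained regions were mostly C/EBP sites. C/EBPbeta was listed at 52.4% (50.7 to 54.0) of gained regions on day 0, at 67.7% (66.1 to 69.2) at 2 hours and at 79.0% (77.7 to 80.3) at 4 hours. In kept regions these shares were 40.9%, 34.3% and 41.8%, and in lost regions 21.4%, 11.5% and 15.8%. Over all 46760 open regions of the series, C/EBPbeta was listed at 26.3% on day 0, 26.9% at 2 hours and 37.4% at 4 hours. Gained regions thus lay above this background at each of the 3 times and lost regions below it. C/EBPdelta was at 61.3% of gained regions at 4 hours and at 10.5% on day 0. The same shares were 29.3% and 15.3% of kept regions, and 8.06% and 4.39% of lost regions, against 24.5% and 4.58% of all open regions. On day 0, C/EBPdelta was thus listed more often at kept than at gained regions, and at 4 hours more often at gained ones. Its day 0 list is short, with 2581 peaks, against 18327 at 4 hours.

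GR, Stat5a and RXR, which were profiled at 4 hours alone, lay at gained regions far more often than elsewhere. GR was at 36.6% (35.1 to 38.2) of gained, 10.7% (9.86 to 11.5) of kept and 1.02% (0.747 to 1.35) of lost regions, against 7.66% of all open regions. Stat5a was at 34.9% of gained, 11.2% of kept and 1.64% of lost regions, against 9.09% of all. RXR was at 18.6% of gained, 6.17% of kept and 0.518% of lost regions, against 3.88% of all. The intervals of the 3 classes did not overlap for any of these factors. In numbers, 47 lost regions held GR and 24 held RXR. Of the 4080 GR peaks in the genome, 32.8% lay in gained, 14.0% in kept and 1.15% in lost regions. Of the 2076 RXR peaks, 33.1%, 16.0% and 1.16% did.

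RNA Pol II, in contrast, was least frequent at gained regions. At 4 hours it was listed at 10.1% of gained, 47.5% of kept and 42.8% of lost regions, against 18.1% of all open regions. On day 0 it was at 8.56% (7.68 to 9.51) of gained, 52.9% (51.5 to 54.2) of kept and 51.2% (49.7 to 52.6) of lost regions, against 19.8% of all. Kept and lost regions could not be ranked for RNA Pol II. With every peak set to 200 bp the day 0 shares were 34.0% of kept and 35.6% of lost regions, in the wider peaks of each list 58.6% and 63.3%, and in regions of 450 to under 650 bp 46.4% and 53.8%. By kind of list, 75.0% of gained regions held a factor and no RNA Pol II, as did 30.2% of kept and 16.9% of lost regions. RNA Pol II without any factor was at 3.39% of gained, 35.8% of kept and 45.6% of lost regions. None of the 10 ChIP lists had a peak at 12.0% of gained, 13.1% of kept and 28.1% of lost regions.

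**Figure D1:**
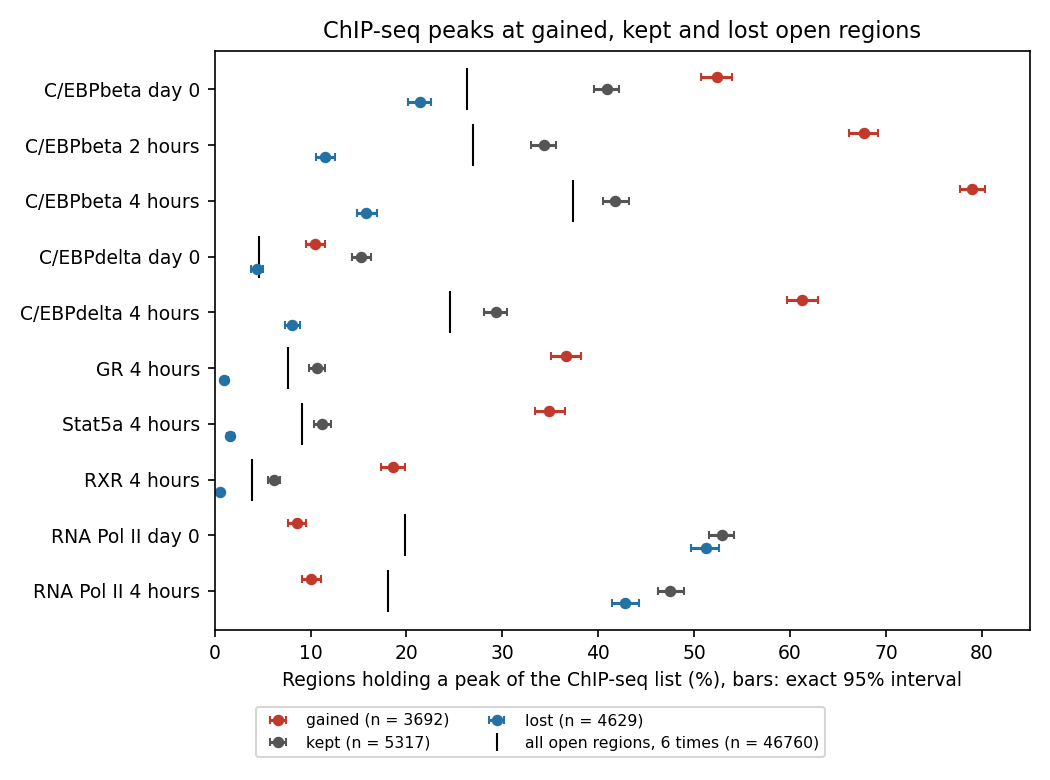
Share of gained, kept and lost open regions (x axis, percent) that hold a peak of each of 10 ChIP-seq lists (y axis), with exact 95% intervals over regions and a black tick for all 46760 open regions of the series. Gained regions lie right of the tick for every transcription factor and left of it for RNA Pol II, at 8.56% on day 0 against a tick at 19.8%.

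The distance between peak middles was shorter for the factors than for RNA Pol II in gained regions, and less clearly so in lost ones. In gained regions the median distance between the middle of the 2 hours DHS peak and the middle of the ChIP peak was 54 bp for C/EBPbeta of 2 hours, 58 bp for GR and 53 bp for RXR. For RNA Pol II of day 0 it was 140 bp. Lost regions had 84.5 bp for C/EBPbeta of day 0, 130.5 bp for Stat5a (n = 76) and 121.5 bp for RNA Pol II of day 0, each from the day 0 DHS peak. Outside the regions the contrasts were smaller. Of regions with no GR peak inside, 12.7% (11.4 to 14.2) of gained, 7.79% (7.04 to 8.59) of kept and 5.61% (4.96 to 6.31) of lost regions had one within 10 kb. Of regions with no RNA Pol II peak of day 0 inside, 14.7% (13.5 to 16.0) of gained, 19.4% (17.9 to 21.0) of kept and 21.4% (19.7 to 23.1) of lost regions had one at that distance.

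Gained regions were compared with regions that appeared later. A set of 18741 regions was first listed at 4 hours, being absent on day 0 and at 2 hours. C/EBPbeta of 2 hours was at 67.7% of gained regions and 27.6% of those first listed at 4 hours, and C/EBPbeta of day 0 at 52.4% and 24.1%. GR was at 36.6% and 6.45%, and RXR at 18.6% and 2.73%. RNA Pol II of day 0 was at 8.56% and 16.2%. Since gained regions had wider 4 hours peaks (median 710 bp, n = 3428, against 529 bp), the 3692 widest of the later regions, with a median of 750 bp, were taken as well. These held C/EBPbeta of 2 hours in 34.5%, GR in 10.5%, RXR in 4.20% and RNA Pol II of day 0 in 32.7% of cases. The differences from gained regions thus held where 4 hours peak widths were alike, a comparison that was chosen after the data had been examined. The stretches searched were not alike. Gained regions spanned their 2 hours peaks (median 549 bp), and the later regions the merged peaks of all 6 DHS lists. A longer stretch can hold more peaks, so the size of the RNA Pol II difference cannot be read from these shares. Of the gained regions, 264 had no 4 hours peak and were included.

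C/EBPbeta had often been present before the region was listed as open. Of gained regions, 49.7% (48.1 to 51.4) had C/EBPbeta on day 0 and at 2 hours, while day 0 DHS was absent by definition. A further 17.9% had it from 2 hours, 10.3% from 4 hours, and 19.4% had it at none of the 3 times. Of kept regions, 32.3% had it on day 0 and at 2 hours, 2.03% from 2 hours and 3.78% from 4 hours. Of lost regions, 10.8% had it on day 0 and at 2 hours, 0.691% from 2 hours and 1.97% from 4 hours. C/EBPbeta peaks of 2 hours without one in the day 0 list were thus at 662 gained, 108 kept and 32 lost regions. Absence from the day 0 list cannot be told apart from a peak too weak to be listed. No share over all open regions was taken for these histories.

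**Figure D2:**
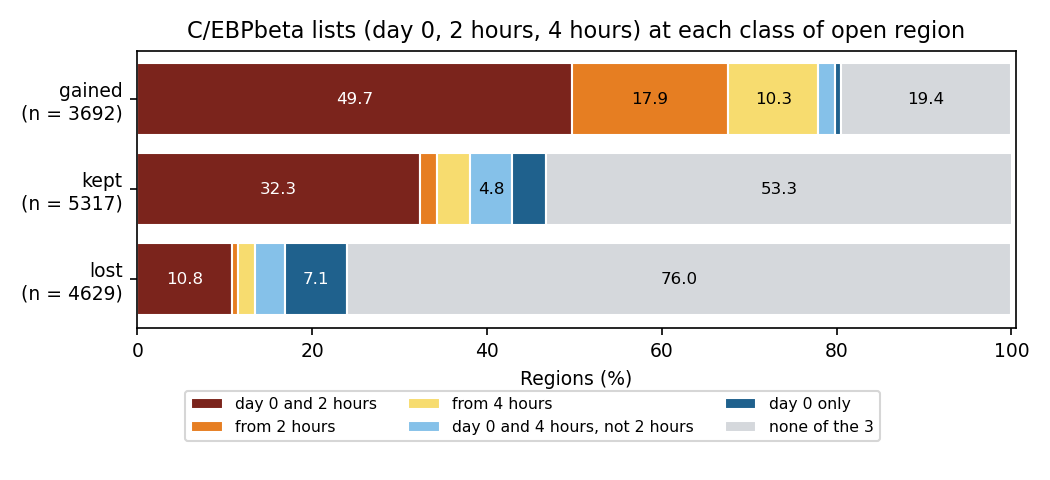
Stacked bars give the share of regions of each class (x axis, percent) by the C/EBPbeta lists of day 0, 2 hours and 4 hours in which they have a peak. In the top bar, 49.7% of gained regions had C/EBPbeta on day 0 and at 2 hours, and in the bottom bar 76.0% of lost regions had it at none of the 3 times.

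Where C/EBPbeta was listed on day 0, it was nearly always listed again at gained regions and less often at lost ones. Of the regions with a day 0 C/EBPbeta peak, 95% (93.9 to 95.9, n = 1933) of gained, 78.9% (77.1 to 80.6, n = 2174) of kept and 50.8% (47.6 to 53.9, n = 989) of lost regions also had one at 2 hours. At 4 hours these shares were 97.9%, 88.9% and 62.8%. C/EBPdelta gave the same order: of regions that held it on day 0, 96.9% (n = 387) of gained, 80.0% (n = 813) of kept and 56.7% (n = 203) of lost regions held it at 4 hours. RNA Pol II of day 0 was listed again at 4 hours at 66.1% (n = 316) of gained, 82.6% (n = 2811) of kept and 76.2% (n = 2370) of lost regions. C/EBP peaks of day 0 were thus found again less often at lost than at gained regions, and whether the change in C/EBPbeta or in DHS came first was not tested. How often such peaks were found again over all open regions was not counted.

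Other factors at gained regions differed with the C/EBPbeta history. GR was at 49.4% (47.1 to 51.7, n = 1836) of gained regions with C/EBPbeta on day 0 and at 2 hours, and at 50.5% (46.6 to 54.3, n = 662) of those with C/EBPbeta from 2 hours, whose intervals overlap. It was at 17.1% (n = 380) where C/EBPbeta was listed from 4 hours and at 5.86% (n = 717) where C/EBPbeta was at none of the times. Stat5a had 44.2%, 45.6%, 21.6% and 11.2% in the same order. RXR had 28.8%, 18.9%, 5.0% and 1.39%, and C/EBPdelta of 4 hours 89.8%, 68.1%, 24.7% and 6.00%. GR and Stat5a thus lay at C/EBPbeta sites listed from 2 hours about as often as at those listed since day 0. RXR and C/EBPdelta lay more often at sites listed since day 0. The 717 gained regions without C/EBPbeta held RNA Pol II of day 0 in 17.9% (15.1 to 20.9) of cases, near the 19.8% of all open regions. Kept and lost regions without C/EBPbeta held it in 69.0% (n = 2834) and 57.5% (n = 3517) of cases.

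The share of gained regions was higher with a greater number of factors listed at 4 hours among the 5 profiled then (C/EBPbeta and C/EBPdelta, GR, RXR and Stat5a). Of the regions with 0, 1, 2, 3, 4 and 5 of these factors, 8.26%, 33.1%, 43.1%, 63.1%, 68.3% and 71.2% were gained, and 52.0%, 24.1%, 14.2%, 4.29%, 2.11% and 0.808% were lost. At least 3 factors were at 42.7% (41.1 to 44.4) of gained, 13.5% (12.6 to 14.5) of kept and 1.36% (1.05 to 1.74) of lost regions. All 5 were at 441 gained, 173 kept and 5 lost regions. The most frequent combination at gained regions was C/EBPbeta with C/EBPdelta and no other (695 regions, 18.8%). This pair alone was nearly as frequent at kept regions (760 regions, 14.3%) and less so at lost ones (263 regions, 5.68%). None of the 5 was at 605 gained regions (16.4%), against 54.7% of kept and 82.4% of lost regions.

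**Figure D3:**
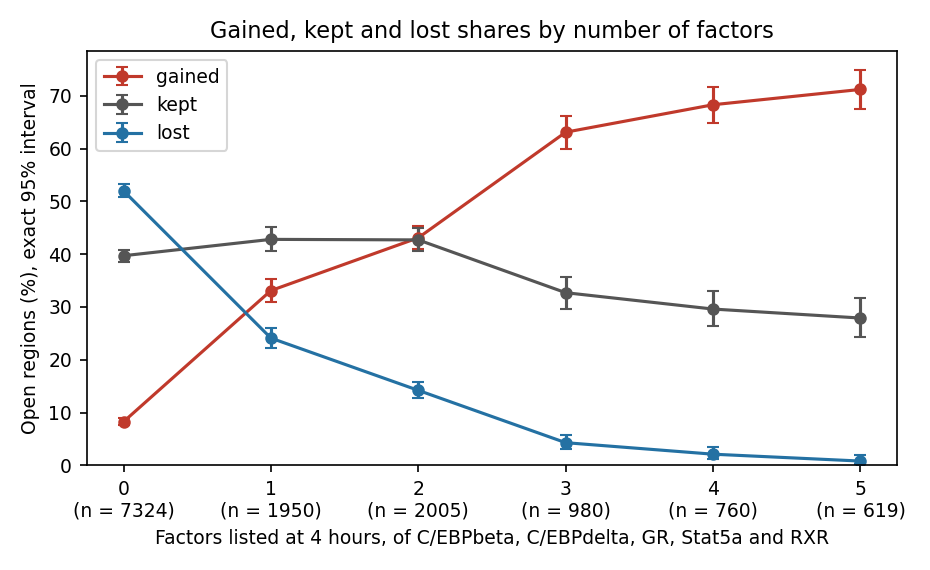
Lines give the share of the 13638 open regions (y axis, percent, exact 95% intervals) that were gained, kept or lost, by the number of 5 factors listed there at 4 hours (x axis, with the number of regions). The gained share goes from 8.26% with 0 factors to 71.2% with 5, and the lost share from 52.0% to 0.808%.

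Width bore on the shares of GR and C/EBPbeta, and gained regions stood above lost ones in every width range. Narrow peaks were more often absent from the other list: of peaks under 450 bp, 55.4% of 2 hours peaks and 73.4% of day 0 peaks were, and of peaks of 650 bp or more, 27.7% and 19.0% were. GR was at 21.6% of gained regions under 450 bp, at 26.3% from 450 to under 550 bp, at 40.1% from 550 to under 650 bp and at 61.5% from 650 bp. At lost regions it was at 1.05%, 1.01%, 0.873% and 1.25% in the same bins. C/EBPbeta of 2 hours went with width likewise, from 51.8% of the narrowest gained regions to 82.7% of the widest, against 11.2% and 14.1% of lost regions.

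Within kept regions, DHS peaks were wider at 2 hours than on day 0 where GR, Stat5a or RXR lay, and narrower where RNA Pol II lay. Over the 5242 kept regions made of 1 peak of each list, the ratio of the 2 hours width to the day 0 width had a median of 0.953 (quartiles 0.818 and 1.12), and 40.9% were wider at 2 hours. With GR the median ratio was 1.2 (quartiles 1.05 and 1.44, n = 556) and 82.0% (78.6 to 85.1) were wider. Without GR it was 0.931 (n = 4686) and 36.0% were wider. The median ratio was 1.17 with Stat5a and 0.932 without, 1.18 with RXR and 0.942 without, and 1.08 with C/EBPbeta of 2 hours and 0.901 without. With RNA Pol II of day 0 it was 0.896, and without it 1.04. By number of the 5 factors, from 0 to 5, the median ratios were 0.888, 0.964, 1.04, 1.13, 1.19 and 1.26. Regions with C/EBPbeta from 2 hours had a median ratio of 1.17 (n = 102), those with it on day 0 and at 2 hours 1.07 (n = 1688), and those that had it on day 0 alone 0.894 (n = 202).

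A ratio depends on the width it starts from, and kept regions with GR had somewhat narrower day 0 peaks (median 584.5 bp) than those without (634 bp). Among kept regions whose day 0 peak measured 550 to under 650 bp, a range chosen after the data had been examined, the median ratio was 1.19 with GR (n = 169) and 0.934 without (n = 1252). For RNA Pol II of day 0 it was 0.919 with (n = 750) and 1.00 without (n = 671). Width in a peak list can follow signal height, read depth or the extent of the open stretch, which cannot be told apart here.

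**Figure D4:**
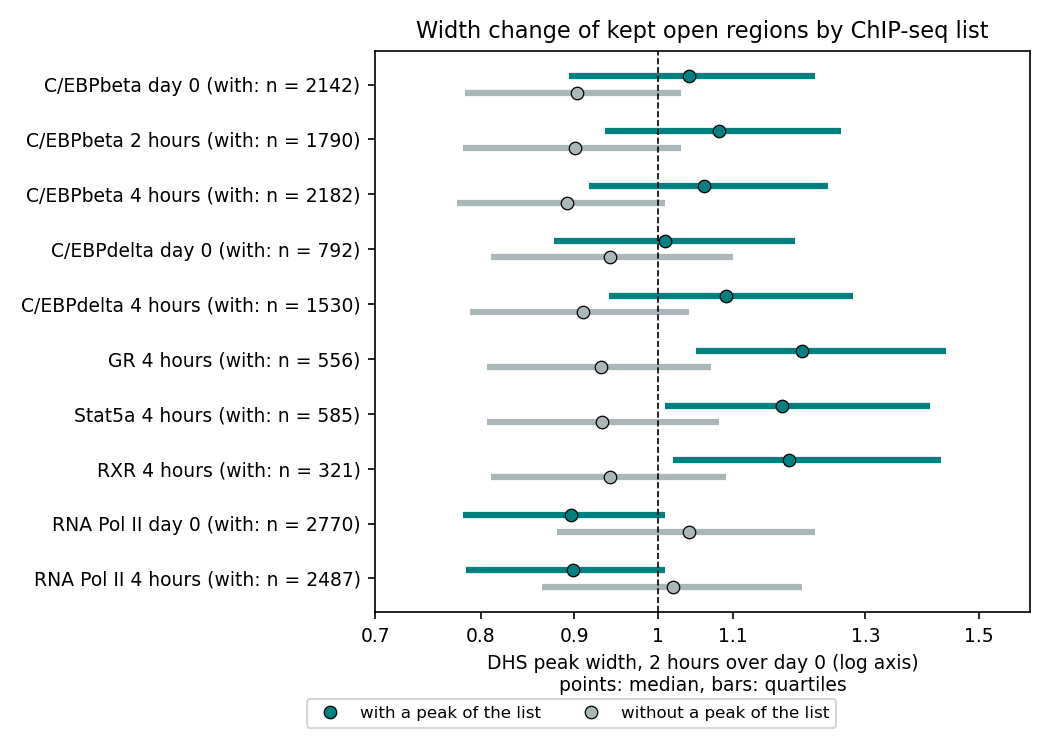
Ratio of the 2 hours to the day 0 DHS peak width (x axis, log scale) for kept regions with and without a peak of each ChIP-seq list (y axis), points for the median and bars for the quartiles. Medians with GR, Stat5a and RXR lie between 1.17 and 1.2, and those with RNA Pol II lie under 1 at 0.896 and 0.899.

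Regions with the most extreme widths are given singly. Positions are on mouse build mm9, counted from 1. No mm9 gene annotation was used here, so genes, exons and introns are not named. The widest gained region lay on chromosome 2 at 46297949 to 46299838, where the DHS peak measured 1890 bp at 2 hours, 1783 bp at 4 hours, 1907 bp on day 1, 2007 bp on day 2 and 976 bp on day 6. It held all 10 ChIP lists of day 0 to 4 hours, C/EBPbeta of day 0 included, though the day 0 DHS list had no peak there. The next, on chromosome 17 at 27289776 to 27291304, measured 1529 bp at 2 hours, 1645 bp at 4 hours, 1034 bp on day 1 and 537 bp on day 2, and had no peak on day 6. C/EBPbeta was listed there from 2 hours, with all 5 factors and RNA Pol II at 4 hours. On chromosome 16 at 37788042 to 37789507 a gained peak of 1466 bp, with C/EBPbeta on day 0, lay in a 4 hours peak of 2910 bp. Another on chromosome 16, at 87783657 to 87785111 (1455 bp), held all 5 factors and no RNA Pol II, with C/EBPbeta from 2 hours. Each of these 4 was listed at 4 hours, on day 1 and on day 2, and on day 6 the chromosome 2 region alone was.

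The widest lost regions were each listed again. On chromosome 5 at 58107776 to 58109489 a DHS peak of 1714 bp on day 0 was absent at 2 hours and measured 3637 bp at 4 hours. That region held RNA Pol II on day 0 and not at 4 hours, and C/EBPbeta at all 3 times. On chromosome X, peaks at 71211668 to 71213366 (1699 bp) and at 94571484 to 94572893 (1410 bp) were absent at 2 hours and present in all 4 later lists, both with RNA Pol II at 4 hours and on day 0. The widest lost regions found in no later list were narrower. These were on chromosome 14 at 79476164 to 79476932 (769 bp), with C/EBPbeta on day 0 and at 2 hours and C/EBPdelta on day 0, and 2 with no ChIP peak of any list, on chromosome 2 at 176859433 to 176860195 (763 bp) and on chromosome 5 at 14970872 to 14971614 (743 bp).

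Among kept regions, the largest width ratio was 5.43, on chromosome 11 at 4208020 to 4209501, where the peak measured 1482 bp at 2 hours and 273 bp on day 0. It held C/EBPbeta at all 3 times, C/EBPdelta at 4 hours and RNA Pol II on day 0, and none of GR, Stat5a and RXR. On chromosome 5 at 101050909 to 101052271 it was 5.03, with 1363 bp at 2 hours and 271 bp on day 0. All 5 factors were there at 4 hours and C/EBPbeta was there from 2 hours. Another, on chromosome 16 at 37731902 to 37732976, had a ratio of 3.84 and all 5 factors. The smallest ratios were 0.295 on chromosome 6 at 117856384 to 117857234 (251 bp at 2 hours and 851 bp on day 0), 0.307 on chromosome 10 at 17441708 to 17443470 and 0.329 on chromosome 13 at 48640812 to 48641601. Each of these 3 held RNA Pol II at 4 hours, when their DHS peaks measured 1243 bp, 2145 bp and 1666 bp.

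The DHS lists of 4 hours, day 1 and day 2 held most regions of all 3 classes. That of day 6 held most kept and lost regions and few gained ones. Of gained regions, the 4 hours list held 92.8% (92.0 to 93.7), that of day 1 86.2%, that of day 2 58.7% and that of day 6 15.5% (14.3 to 16.7). Kept regions had 98.7%, 98.0%, 91.6% and 79.2%. Lost regions had 88.1% (87.2 to 89.1), 92.0%, 74.3% and 63.2%. All 46760 open regions of the series had 66.8%, 73.3%, 52.7% and 24.6%. Gained regions thus lay above this background up to day 2 and below it on day 6. The background was built from these same lists, so its shares are fixed in part. Of its regions, 18741 were first listed at 4 hours and count as found there by definition. On day 6, lost regions were thus listed more often than gained ones, by intervals that do not overlap. The 4 hours list, with its 31751 peaks, is far longer than the lists compared, and it held 66.8% of all 46760 open regions. Absence from the 2 hours list therefore cannot be told apart from a peak too weak to be listed. All 4 later lists held 77.1% of kept, 57.7% of lost and 14.3% of gained regions. Of gained regions, 40.9% were at 4 hours, day 1 and day 2 and not on day 6, and 2.87% were in no later list.

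**Figure D5:**
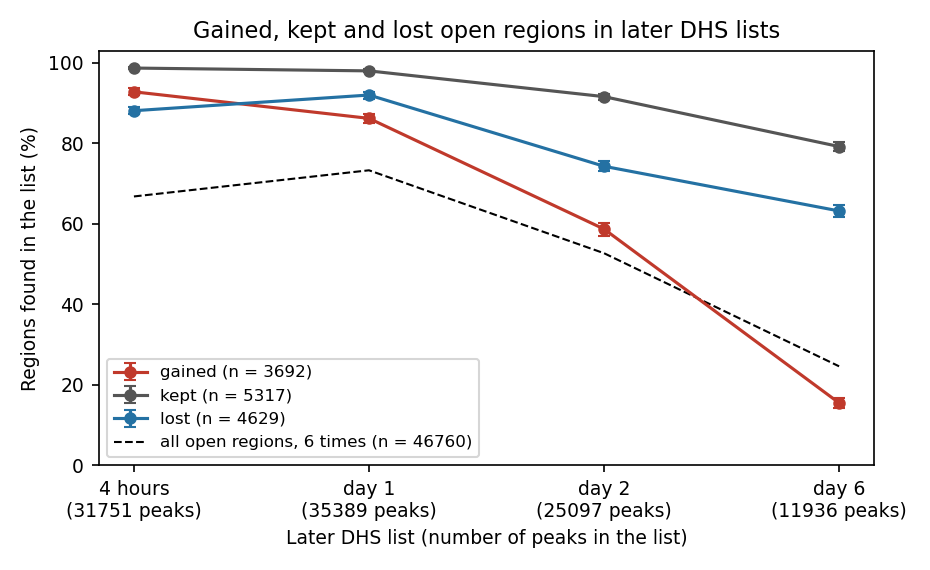
Share of gained, kept and lost regions (y axis, percent, exact 95% intervals) found in each later DHS list (x axis, with the number of peaks in the list), and of all open regions as a dashed line. Gained regions go from 92.8% at 4 hours to 15.5% on day 6, and lost regions from 88.1% to 63.2%. The dashed line goes from 66.8% to 24.6%.

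The share of gained regions listed on day 2 was higher with more factors. Gained regions in all 4 later lists were also wider (median 569 bp) than those in no later list (450.5 bp). Width was not held constant in the shares that follow. With 0 to 5 of the factors of 4 hours, 44.6%, 45.7%, 57.3%, 58.9%, 73.8% and 81.4% of gained regions were listed on day 2. On day 6 the same shares were 17.7%, 16.1%, 15.5%, 15.0%, 13.7% and 14.1%, so that no such order remained. By C/EBPbeta history, the day 2 list held 71.9% (69.8 to 74.0) of gained regions with C/EBPbeta on day 0 and at 2 hours, 48.0% (44.2 to 51.9) of those with it from 2 hours, 38.2% (33.3 to 43.3) of those with it from 4 hours and 45.0% (41.4 to 48.8) of those with it at none of the times. The day 6 list held 18.2%, 10.3%, 8.16% and 17.2% in the same order, so that regions with C/EBPbeta since day 0 and regions without it lay close together there, above the regions with C/EBPbeta from 2 hours or from 4 hours. Gained regions with RNA Pol II of day 0 were few (n = 316, against 3376 without). On day 2, 80.7% (75.9 to 84.9) of them were listed, against 56.6% (54.9 to 58.3) of those without. On day 6, 36.4% (31.1 to 42.0) were, against 13.5% (12.4 to 14.7).

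Lost regions fell into a large part that was listed again at 4 hours and a small part that was not. The 549 lost regions absent at 4 hours held C/EBPbeta of day 0 in 30.1% (26.2 to 34.1) and RNA Pol II of day 0 in 10.2% (7.80 to 13.0) of cases. The 4080 that were listed at 4 hours held C/EBPbeta of day 0 in 20.2% (19.0 to 21.5) and RNA Pol II of day 0 in 56.7% (55.2 to 58.2). At 2 hours C/EBPbeta was down in both parts, to 7.65% of the 549 and to 12.1% of the 4080. From day 0 to 2 hours it also went down in kept regions, from 40.9% to 34.3%. It went up in gained regions, from 52.4% to 67.7%, and was level over all open regions (26.3% and 26.9%). Lost regions with RNA Pol II of day 0 were listed on day 6 in 83.7% (n = 2370) of cases, against 41.6% (n = 2259) without. The 222 lost regions in no later list (4.80%) had a median width of 448 bp, and 0 of them held GR (interval up to 1.65%).

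Regions of each class were spread over the genome, and some lay in dense runs. The longest run of kept regions, each at most 10 kb from the next, numbered 33 on chromosome 11 at 3031892 to 3099993. The longest lost run numbered 12 on chromosome 10 at 116839678 to 116901050. A run of 19 kept regions, at 116814538 to 116879677, overlapped it in position, so kept and lost regions were mixed there. The longest gained run numbered 6 on chromosome 13 at 53071953 to 53090266. In all, 491 regions on 18 chromosomes lay in runs of at least 5 regions of any class (114 gained, 263 kept and 114 lost). Of these, 124 were on chromosome 10. No input track was used here, so whether such runs reflect copy number or poorly mapped sequence was not tested. Without them, RNA Pol II of day 0 was at 54.5% of kept and 51.7% of lost regions. Of the 230 regions on chromosome X, 14.8% were gained and 47.8% were lost, against 27.1% and 33.9% of all 13638.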

How the data were processed

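For 19 samples the authors deposited a peak list, with the chromosome, start and end of each peak in base pairs and no score, count or height. The input control sample came with no list here and was not analysed here. The submitters' processing notes name mm9 as the genome build. The aligner, peak caller, threshold and read depth are not given in the sources used here. Intervals are exact (Clopper-Pearson, 95%) and cover counting over regions only, since neighbouring regions are not independent samples.

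Overlapping peaks of the 2 hours and day 0 DHS lists (at least 1 bp) were merged, and each other list was checked for a peak in every region. With 1 library per group no test was run. The functions were tested on simulated regions. Distances are between peak middles, and width ratios use kept regions made of 1 peak of each list. The regions named are the 3 widest gained, the 3 widest gained with all 5 factors of 4 hours (which name 2 regions again), the 3 widest lost, the 3 widest lost in no later DHS list, and the 3 kept regions with the largest and the 3 with the smallest width ratio, leaving out chromosomes 18 and M. The longest runs were named after their values were seen.

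The classes, lists and alternatives were chosen with earlier results of these data known. Regions first listed at 4 hours and the widest of these, day 0 widths of 550 to under 650 bp, regions of 450 to under 650 bp and dense runs were added after the data had been examined. Gene tables were given for GRCm38.p6 and not for mm9, so no gene names or sequences were assigned. Versions were pandas 2.3.3, NumPy 2.4.6 and Matplotlib 3.10.9 in Python 3.11.15, with intervals from SciPy 1.17.1.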

Additional observations from a re-analysis of the deposited data

Results flagged for a closer look

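Lists of later times, which the comparison of 2 hours with day 0 did not use, also had peaks at gained regions, each share being above the 0.0813% that a count of 0 allows (3 of 3692), a limit so low that the share over all open regions is the fairer measure. C/EBPbeta of day 2 was at 49.0% of gained, 25.2% of kept and 8.25% of lost regions, against 25.5% of all 46760 open regions. PPARgamma, the nuclear receptor that drives the adipocyte state, was at 8.34% of gained, 5.19% of kept and 1.71% of lost regions on day 2, against 5.32% of all. On day 6 it was at 9.24% (8.32 to 10.2) of gained, 8.33% (7.60 to 9.11) of kept and 3.89% (3.35 to 4.49) of lost regions, against 7.73% of all. The day 6 intervals of gained and kept regions overlap. Gained regions with C/EBPbeta on day 0 and at 2 hours held PPARgamma of day 2 in 13.1% (11.6 to 14.8) of cases, those with C/EBPbeta from 2 hours in 6.34% (4.61 to 8.48) and those with C/EBPbeta at none of the 3 early times in 1.26% (0.576 to 2.37).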

How the results depend on the processing

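Of 106 alternative values, 62 stayed within the interval of the reported value (counts within 1.5 times) and 44 moved beyond it; the cause was not tested. A single share or count has no direction to reverse, but the order of kept and lost regions for RNA Pol II of day 0 (52.9% and 51.2%) turned round under 3 settings below: peaks set to 200 bp, wider peaks only, and regions of 450 to under 650 bp. The lists give no score, so width stood in for strength. Asking for 50% of the shorter peak to be shared gave C/EBPbeta of 2 hours at 9.49% of lost regions and RNA Pol II of day 0 at 51.2% of kept and 48.3% of lost ones. A gap of up to 500 bp found 55.2% of day 0 peaks at 2 hours, with C/EBPbeta of 2 hours at 69.8% of gained and 14.2% of lost regions, C/EBPbeta of day 0 at 54.6% of gained, and RNA Pol II of day 0 at 54.8% of kept and 52.8% of lost regions. Peaks set to 200 bp gave, in the same order, 51.2%, 59.9%, 8.57%, 46.1%, 34.0% and 35.6%, with GR at 32.5% of gained regions, and the 4 hours DHS list then held 84.1% of gained and 77.8% of lost regions; width ratios are 1 there by construction and were not computed. The day 0 list shortened to the length of the 2 hours list gave 56.6% of day 0 peaks found, RNA Pol II at 54.2% of kept and 53.8% of lost regions, 90% of lost regions at 4 hours and a median width ratio of 0.944. Keeping only peaks at or above each list's median width left fewer peaks, with 2153 gained, 2392 kept and 2614 lost regions, 47.9% of day 0 peaks found, C/EBPbeta of 2 hours at 72.6% of gained and 14.3% of lost regions, C/EBPbeta of day 0 at 60.5% and GR at 45.2% of gained regions, RNA Pol II at 58.6% of kept and 63.3% of lost regions, 97.1% of gained and 95.7% of lost regions at 4 hours, and a ratio of 0.965. Within the middle 200 bp of regions, C/EBPbeta of 2 hours was at 10.1% of lost regions, and RNA Pol II at 49.7% of kept and 49.3% of lost ones. A pair of alternatives was added after seeing the data: without dense runs RNA Pol II was at 54.5% of kept regions, and in regions of 450 to under 650 bp GR was at 33.2% of gained regions, RNA Pol II at 46.4% of kept and 53.8% of lost regions, and 90% of lost regions were listed at 4 hours. On autosomes alone no value moved. No paired analysis was possible because each group held 1 library and no result came from a test. Depth is unknown, so regions absent from a list were not detectable there at its threshold and are not shown to be closed.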
